A study of Mus musculus with 16 samples.

Results

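The 10 genes described here belong to the extracellular proteolysis system and were followed in mice bearing HM1 tumours, used as a model of ovarian cancer, some of which received the sugar mannose as a supplement. They are the matrix metalloproteinase genes Mmp2, Mmp3, Mmp8, Mmp9, Mmp12, Mmp13, Mmp14 and Mmp19, the related metalloproteinase gene Adamdec1, and Timp1. Timp1 encodes a tissue inhibitor of metalloproteinases. The members were chosen by gene symbol, with earlier results of these data known. All 10 were present in every table, among 53112 symbols in the tumour tables and 55290 in the CD8 tables. Transcripts were measured by bulk RNA sequencing in 16 libraries. Whole tumour tissue gave 5 control libraries and 5 from animals supplemented with mannose, and CD8 T cells sorted from HM1 tumours gave 3 control and 3 mannose libraries. The labels give no age, strain, dose or time, and although the series title speaks of anti-PD-1 therapy they do not say that any library came from antibody-treated animals. They also do not tie libraries to animals, so the spread behind every p-value is that of these libraries and may be technical.

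Matrix metalloproteinases are zinc-dependent enzymes, mostly secreted as inactive precursors, that cut collagens, other matrix proteins, cytokines and surface receptors. Tissue inhibitors of metalloproteinases bind the active enzymes and block them, so the reach of proteolysis depends on both sides. In tumours the enzymes come from cancer cells, fibroblasts, macrophages and neutrophils, and they are known for matrix remodelling, invasion and vessel growth.

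Values are in TPM, a transcript abundance corrected for gene length and scaled to a fixed library total, so that levels can be set against each other within a library. The tables give no read counts, and the depth behind each value is unknown. The tumour and CD8 tables were made separately, with different symbol lists, and no level was tested between them. All 3 tables of the CD8 control libraries carry a header that names mannose. The groups here follow the labels, and every direction in the CD8 comparison rests on them. CD8 control libraries 1 and 2 were nearly alike in T cell receptor beta variable gene shares (r = 0.9987), and so were CD8 mannose libraries 1 and 2 (r = 0.9948), against r between 0.267 and 0.763 for the other CD8 pairs, so results are also given with each such pair averaged. In these shares CD8 control 3 was closer to CD8 mannose 1 and 2 (r = 0.758 and 0.763) than to CD8 control 1 and 2 (0.298 and 0.309). Over expressed genes it was closer to CD8 control 1 and 2 (r = 0.971 and 0.972) than to CD8 mannose 1 and 2 (0.884 and 0.893). Among the tumours, control 1 and mannose 3 resembled the rest least (mean correlation 0.9451 and 0.958).

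The labelled cell type was checked against its markers. Cd8a, the CD8 co-receptor, stood at 582.4 ± 11.4 TPM (SD, n = 3) in CD8 control and 408.8 ± 141.9 TPM (n = 3) in CD8 mannose libraries. These libraries also held transcripts of other cell types. A list of 12 macrophage markers summed to between 3058 and 3102 TPM in CD8 control and between 697.5 and 861.9 TPM in CD8 mannose libraries, beside 8 T cell markers at 3929 to 4193 and 2019 to 3805 TPM. A list of 10 epithelial markers summed to 259.8 to 579.1 TPM in the controls and 1747 to 2672 TPM with mannose. In the whole tumours the epithelial keratin gene Krt8 was at 1486 ± 277 TPM in controls (n = 5), while Epcam, an epithelial surface marker, did not exceed 0.24 TPM in any of the 10 tumours.

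Promoter sequences from RefSeq (build GRCm38.p6, which differs from the GRCm39 build named in the submitters' processing notes) were available for 6 of the 10 members, in windows from 250 bases before to 50 bases after the start. They are shown because metalloproteinase genes are textbook targets of the transcription factor AP-1, and because the members that hold its motif had unlike values here. The windows of Mmp13, Mmp3 and Mmp12 hold an exact match to the AP-1 motif TGAGTCA, and those of Mmp8, Mmp14 and Timp1 hold none. Of the latter, Timp1 is printed. Variants of the motif were not searched. The Timp1 window holds a near variant, TGAGTAA, so the lack of an exact match does not mean the lack of an AP-1 site. Capitals mark the match to TGAGTCA or its reverse complement TGACTCA, and each sequence runs 5′ to 3′ on the plus strand.

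Mmp13 (chr9:7272264-7272563): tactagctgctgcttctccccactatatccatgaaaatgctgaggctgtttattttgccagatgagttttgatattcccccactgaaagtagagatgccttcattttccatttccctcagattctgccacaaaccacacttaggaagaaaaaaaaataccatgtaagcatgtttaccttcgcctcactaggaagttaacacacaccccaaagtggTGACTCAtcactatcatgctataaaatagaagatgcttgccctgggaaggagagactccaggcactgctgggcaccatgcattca

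Mmp3 (chr9:7445572-7445871): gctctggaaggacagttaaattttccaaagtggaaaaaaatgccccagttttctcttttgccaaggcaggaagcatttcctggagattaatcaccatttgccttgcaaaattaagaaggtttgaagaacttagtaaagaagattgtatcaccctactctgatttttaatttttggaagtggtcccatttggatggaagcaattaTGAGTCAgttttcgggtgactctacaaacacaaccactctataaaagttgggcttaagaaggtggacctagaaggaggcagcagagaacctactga

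Mmp12, the window of 2 that holds the motif (chr9:7347124-7347423): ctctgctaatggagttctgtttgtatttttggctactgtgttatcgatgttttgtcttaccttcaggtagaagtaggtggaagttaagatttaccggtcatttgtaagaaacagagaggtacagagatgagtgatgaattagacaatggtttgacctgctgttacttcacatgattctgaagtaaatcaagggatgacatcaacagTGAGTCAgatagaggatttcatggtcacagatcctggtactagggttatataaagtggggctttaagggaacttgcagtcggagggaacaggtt

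Timp1 (chrX:20869916-20870215): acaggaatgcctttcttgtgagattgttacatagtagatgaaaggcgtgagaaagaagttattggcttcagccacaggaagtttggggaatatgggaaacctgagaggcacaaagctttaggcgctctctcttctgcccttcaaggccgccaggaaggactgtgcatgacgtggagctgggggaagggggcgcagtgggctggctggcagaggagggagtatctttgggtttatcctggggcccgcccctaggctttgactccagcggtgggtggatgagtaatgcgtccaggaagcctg

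The first base of the AP-1 match lies 35 bases before the annotated start in Mmp13, 46 in Mmp3 and 44 in the printed Mmp12 window. Of 32851 promoter windows of this length, 5.2% hold that motif on either strand. The motif bound by the Ets factor PEA3 (AGGAAG or CTTCCT) was found in 6 of the 7 windows of these members and in 35.4% of all windows. For Mmp12 it lies only in the window that is not printed. TATAAA or TTTATA was found in 4 of the 7 windows and in 13.6% of all windows. A match describes letters only. Mmp2, Mmp9, Mmp19 and Adamdec1 had no entry.

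The genes of Mmp3, Mmp8, Mmp12 and Mmp13 lie in the metalloproteinase cluster of chromosome 9, where RefSeq places Mmp12 next to Mmp13 and Mmp8 next to Mmp10. Mmp2 lies on chromosome 8, Mmp9 on 2, Mmp19 on 10, Mmp14 and Adamdec1 on 14, and Timp1 on X. Timp1 overlaps Syn1 on the opposite strand (1.55 to 22.5 TPM over all libraries), Mmp19 overlaps Tmem198b (9.70 to 20.2 TPM), and Mmp12 overlaps Mmp1b (at most 0.37 TPM). Whether the counting used strand is not given in the sources used here, so reads of these pairs may not be fully separated.

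In control tumours the most abundant members were Mmp9 (539.7 ± 111 TPM, n = 5), Timp1 (325.2 ± 48.7 TPM), Mmp13 (287.1 ± 94.5 TPM), Mmp12 (166.5 ± 48.8 TPM) and Mmp14 (122.6 ± 31.9 TPM). Mmp9 ranked 250th of the 13334 genes with a mean of at least 1 TPM. Mmp3 (48.6 ± 22.7 TPM), Mmp2 (17.4 ± 14.5 TPM), Mmp19 (13.3 ± 4.70 TPM) and Adamdec1 (7.06 ± 3.27 TPM) followed, and Mmp8 was the lowest at 1.14 ± 0.588 TPM. Neighbours in this order had separate ranges only at Mmp9 over Timp1, Mmp14 over Mmp3 and Adamdec1 over Mmp8. In mannose tumours Mmp13 stood above Timp1 and the rest of the order was the same, with separate ranges at Mmp14 over Mmp3, Mmp3 over Mmp2 and Adamdec1 over Mmp8.

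The CD8 control libraries had another order. Mmp12 led at 905.4 ± 54.7 TPM (n = 3), rank 176 of 13965 genes, ahead of Mmp9, Mmp13, Mmp19, Mmp14, Timp1, Mmp3, Mmp8, Adamdec1 and Mmp2, and only Mmp3 with Mmp8 and Adamdec1 with Mmp2 had overlapping ranges. In CD8 mannose libraries the order was Mmp13, Mmp9, Mmp12, Timp1, Mmp14, Mmp19, Mmp3, Mmp2, Mmp8 and Adamdec1. Ranges there were separate only at Timp1 over Mmp14, Mmp14 over Mmp19 and Mmp2 over Mmp8.

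**Figure D1:**
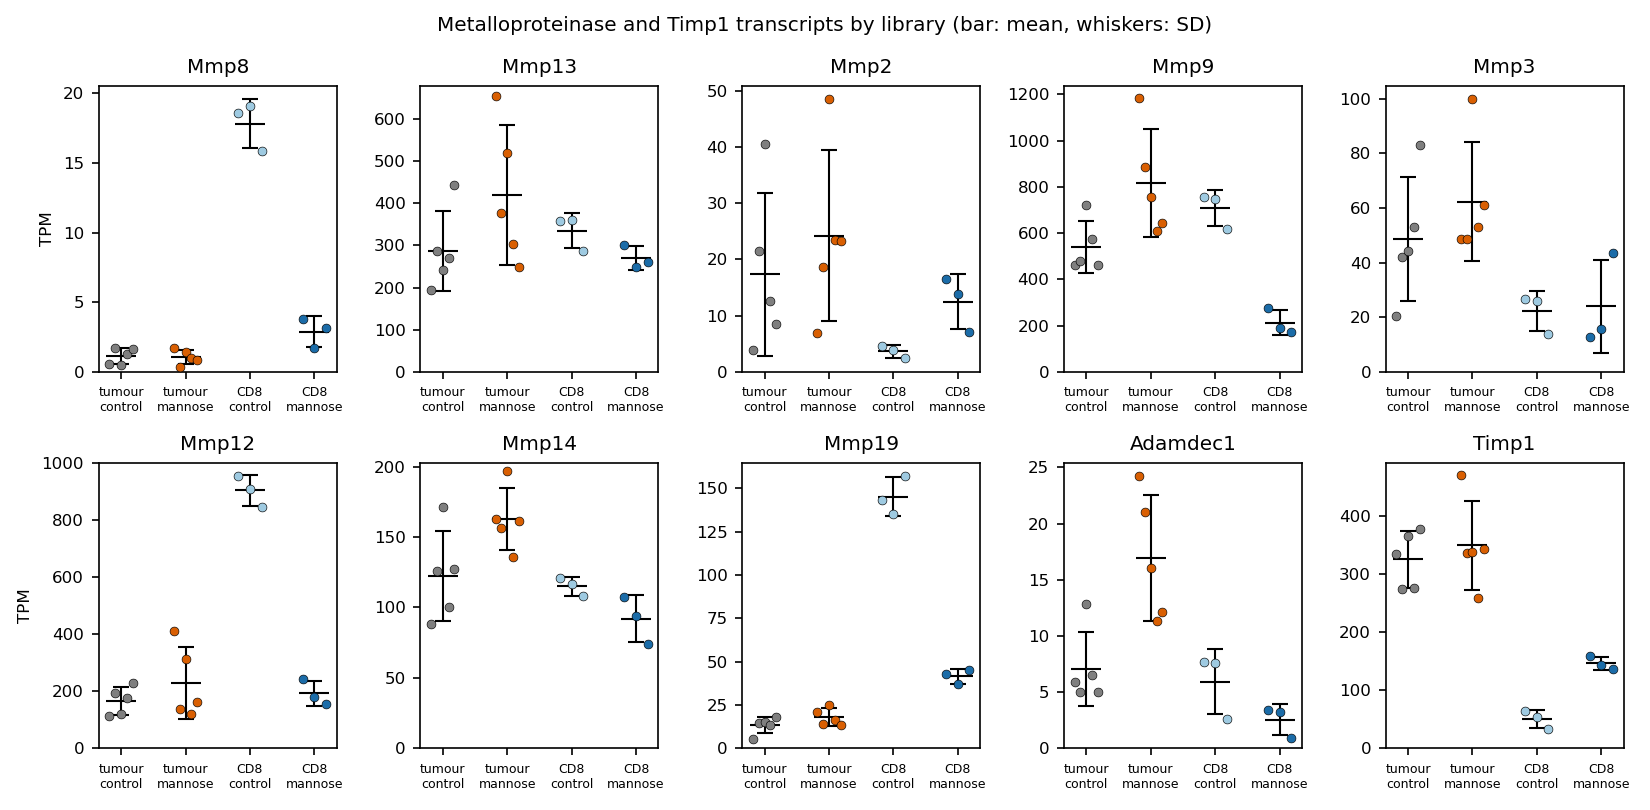
TPM of the 10 genes in each library (points) of the 4 groups, with the mean (bar) and SD (whiskers); each panel has its own linear axis from 0. Mmp8, Mmp9, Mmp12 and Mmp19 are higher in every CD8 control library than in any CD8 mannose library, Mmp2 and Timp1 lower, and the tumour groups overlap in every panel.

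The CD8 comparison asks how mannose supplementation changed transcripts of the sorted cells. Of the 10 genes, 4 were lower with mannose and 2 higher at an adjusted p under 0.05 (limma on log2 of TPM + 1, Benjamini-Hochberg over all genes tested). The collagenase Mmp8, the gelatinase Mmp9, the macrophage elastase Mmp12 and Mmp19 fell, and the gelatinase Mmp2 and the inhibitor Timp1 rose. Over all 14280 genes tested, 11.7% were called lower and 23.2% higher (34.9% in all). The median difference of the 10 genes was -0.65, beside 0.09 for all genes tested, on the log2 scale. Because the members were chosen with earlier results known, these shares and medians describe the set and do not test it. In bulk libraries such as these, fewer cells of a type and less RNA per cell cannot be told apart.

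Among the collagenases, Mmp8, known mainly from neutrophils, read 18.57, 19.08 and 15.85 TPM in the 3 control libraries and 3.82, 1.68 and 3.18 TPM in the 3 mannose libraries. Every mannose library lay below every control, and the control mean was 6.16 times the mannose mean. The log2 difference was -2.31 (SE 0.232, adjusted p = 0.00130). Mmp13, the main interstitial collagenase of the mouse, read 358.51, 359.35 and 286.48 TPM in controls and 301.90, 248.27 and 259.44 TPM with mannose. These groups overlapped, since mannose library 1 exceeded control 3, and the log2 difference of -0.31 (95% interval -0.59 to -0.02) did not pass (adjusted p = 0.0897). Without control 3 it passed at -0.42 (adjusted p = 0.0400).

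The gelatinases went opposite ways. Mmp9 read 758.06, 745.17 and 618.55 TPM in controls and 275.54, 191.25 and 171.50 TPM with mannose. The groups did not overlap, the controls averaging 3.32 times the mannose level (log2 difference -1.75, SE 0.182, adjusted p = 0.00146). Mmp2 read 4.61, 3.87 and 2.45 TPM in controls and 16.52, 13.84 and 7.04 TPM with mannose, again without overlap. Its mean was 3.42 times higher with mannose (log2 difference 1.49, SE 0.326, adjusted p = 0.0133). The Mmp2 call was lost without mannose library 2 (1.38, adjusted p = 0.0593), with the alike pairs averaged (1.42, adjusted p = 0.0888) and in 1 fit of all 16 libraries (adjusted p = 0.119).

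Mmp3, stromelysin-1, which cuts proteoglycans and activates other metalloproteinases, read 26.86, 25.96 and 13.72 TPM in controls and 12.87, 15.53 and 43.45 TPM with mannose. Mannose library 3 was the highest of all 6 and mannose library 1 the lowest. The log2 difference was -0.04 with an interval from -1.15 to 1.07, which leaves changes of more than 2-fold in either direction undecided, and it turned positive without control 1 or 2 or mannose 1 or 2. Mmp12, the elastase named for macrophages, read 957.35, 910.67 and 848.28 TPM in controls and 242.28, 180.55 and 156.34 TPM with mannose. The control mean was 4.69 times the mannose mean, without overlap (log2 difference -2.25, SE 0.158, adjusted p = 3.10e-04).

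Mmp14, the membrane-anchored enzyme that activates the Mmp2 precursor, read 121.16, 116.52 and 107.92 TPM in controls and 107.51, 93.91 and 74.26 TPM with mannose. All 3 mannose libraries lay just below the controls, but the log2 difference of -0.34 (interval -0.67 to -0.008) did not pass (adjusted p = 0.101). Mmp19, which cuts basement membrane proteins, read 143.06, 135.53 and 157.39 TPM in controls and 42.70, 36.93 and 44.92 TPM with mannose. The control mean was 3.50 times higher (SE of the log2 difference 0.103, adjusted p = 2.29e-04), and its difference was the most precise of the 10. Adamdec1, an ADAM-like protease of macrophages and dendritic cells, read 7.67, 7.59 and 2.57 TPM in controls and 3.44, 3.23 and 0.95 TPM with mannose, and did not pass (-0.95, interval -2.03 to 0.13, adjusted p = 0.147). The third library was the lowest of its group on both sides.

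Timp1, the secreted inhibitor, read 63.57, 54.29 and 33.79 TPM in controls and 157.92, 142.60 and 137.03 TPM with mannose. Every mannose library exceeded every control. The ratio of means was 2.88 (log2 difference 1.55, SE 0.219, adjusted p = 0.00316). Counting Mmp14 with the called genes, 5 members lay wholly below and 2 wholly above their controls, against 18.1% and 33.3% of all genes tested. With the alike pairs averaged, the Mmp8, Mmp9, Mmp12, Mmp19 and Timp1 calls held, at adjusted p values of 0.0131, 0.0203, 0.0106, 0.0102 and 0.0364.

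Scaling the CD8 libraries to equal T cell marker levels moved the median of all genes to 0.74 on the log2 scale. The calls and directions of the 6 genes held under it, with Mmp9 at -1.03 and Mmp19 at -1.07, while the differences of Mmp13, Mmp14 and Mmp3, none of them called, turned to 0.42, 0.38 and 0.65. Under that scaling 6095 genes were called higher and 333 lower, in place of 3306 and 1674, and under quantile normalization 2673 and 2305.

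Markers of other cell types moved with these genes, beside 11.7% of all genes tested called lower and 23.2% higher. All 12 macrophage markers fell in the CD8 mannose libraries (median log2 difference -1.89), as did 4 of the 6 neutrophil markers tested (median -1.23) and 3 of 6 dendritic cell markers (median -0.76). The 9 neutrophil markers summed to 294.2 to 654.6 TPM in controls and 103.8 to 199.3 TPM with mannose. They were not alike: Camp was at 0 in 2 control and all 3 mannose libraries. Ltf, on the same list, read 7.11 to 7.78 TPM in controls and 5.21 to 9.65 TPM with mannose. Rising lists were the fibroblast markers (7 of 9, median 1.62, summed level 61.2 to 174.5 TPM in controls and 313.3 to 492.9 TPM with mannose), endothelial markers (4 of 8, median 1.00) and epithelial markers (5 of 7 higher and 1 lower, median 2.38). Of the 8 T cell markers 2 were called lower (median -0.65). All 8 had a negative difference at an unadjusted limma p under 0.05, and all 8 were called lower under median-ratio scaling. With the alike pairs averaged, all 12 macrophage markers were still called, but 1 neutrophil marker and none of the dendritic cell, T cell, fibroblast or endothelial markers, while the epithelial counts were unchanged. Scaling to T cell markers left 11 macrophage, 1 neutrophil and 0 dendritic cell markers called lower. The part of these cell markers in the differences of Mmp and Timp1 transcripts was not tested. The mitochondrial share of TPM was 3.93% to 4.43% in controls and 4.61% to 5.11% with mannose, and its part was not tested either.

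**Figure D2:**
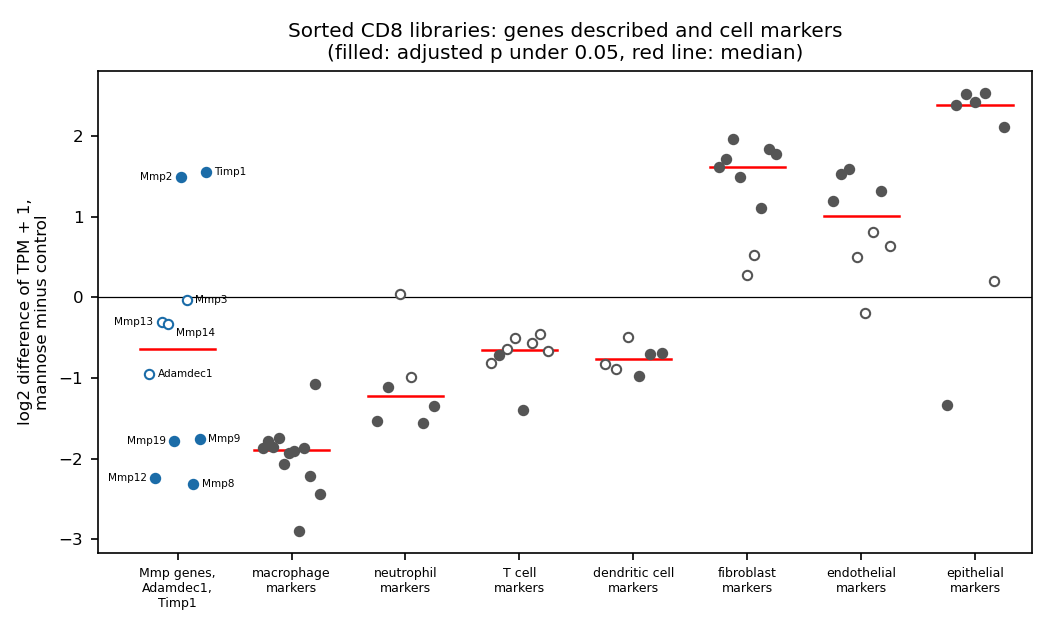
Log2 difference of TPM + 1 (mannose minus control, CD8 libraries, vertical axis) for the 10 genes and for 7 lists of cell markers; each point is a gene, filled where its adjusted p was under 0.05, and the red line is the list's median. Mmp8, Mmp9, Mmp12 and Mmp19 lie at the height of the macrophage markers (median -1.89) and Mmp2 and Timp1 at that of the fibroblast markers (median 1.62). The neutrophil list also fell (median -1.23), the endothelial and epithelial lists also rose (medians 1.00 and 2.38), and no cell source was tested.

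Other genes of the system were counted in lists set by function, beside 23.2% of all genes tested called higher and 11.7% lower. Of 15 further Mmp genes 6 were expressed enough to test, and 4 rose and 1 fell in the CD8 mannose libraries (median 0.97). Mmp25, a membrane-anchored enzyme of leukocytes, fell (-1.33, adjusted p = 0.00338), while the stromelysins Mmp10 and Mmp11 (1.09 and 1.21, adjusted p = 0.0131 and 0.0170) and Mmp15 (1.04, adjusted p = 0.00916) rose. Of 3 other inhibitors tested 2 rose and none fell: Timp2 and Timp3, by 1.97 (adjusted p = 0.00165) and 1.32 (adjusted p = 0.0372). Timp2 went from 57.4 ± 14.2 to 225.4 ± 40.7 TPM (n = 3 each). The matrix substrates, of which 4 of 15 are also fibroblast markers, rose in 14 of 15 cases (median 1.71), among them the proteoglycan gene Bgn (2.53), the laminin gene Lamb1 (2.33) and the collagen genes Col3a1 (1.97) and Col4a1 (1.96). With the alike pairs averaged, no further Mmp gene was called higher, Mmp25 was still called lower, Timp2 was the only inhibitor of these 3 still called, and 5 of the 15 substrates remained called. Timp3 lost its call without any 1 library other than mannose 3, Mmp10, Col3a1 and Col4a1 without mannose 1 or 2, and Mmp11 without control 2 or mannose 1 or 2.

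The plasminogen system, which activates metalloproteinase precursors, was divided, with 3 of 11 tested genes higher and 4 lower (median -0.34). Over all genes tested, 23.2% were called higher and 11.7% lower. Serpinb2, an inhibitor of urokinase made by activated macrophages, fell from 62.9 ± 11.9 to 8.69 ± 2.14 TPM (-2.73, adjusted p = 3.10e-04), and the matricellular gene Thbs1 fell from 820.5 ± 24.0 to 167.2 ± 42.4 TPM (-2.32, adjusted p = 4.68e-04). Plat, the tissue plasminogen activator, rose (2.05, adjusted p = 0.00816). Of 13 tested Adam and Adamts genes 6 rose and 1 fell (median 0.47). The one that fell was Adam8, a leukocyte sheddase (-1.66, adjusted p = 4.73e-04), and Adamts1, Adamts2 and Adamts4 rose by 1.29, 1.27 and 1.35. With the alike pairs averaged Adam8 was the only one of the 13 still called, and Plat missed the threshold (adjusted p = 0.0512). Without CD8 mannose 1 or 2 all 3 Adamts calls were lost, and that of Adamts4 also without control 2 or 3. Scaling to T cell markers turned the median of the plasminogen list to 0.38, with 4 genes higher and 2 lower, and left 10 Adam and Adamts genes higher.

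Among 23 inducers and transcription factors of metalloproteinase genes, 9 fell and 6 rose (median -0.53, which turned to 0.18 with 4 lower and 6 higher when scaled to T cell markers). In the main fit 11.7% of all genes tested fell and 23.2% rose. With the alike pairs averaged 6 of the 23 were lower and 4 higher. The inducing cytokines Il1b, Il1a and Tnf fell by 2.41, 2.35 and 1.90 on the log2 scale (adjusted p = 2.03e-04, 3.10e-04 and 0.00232). Il1b went from 1903 ± 120 to 359.2 ± 52.9 TPM (n = 3 each). The Ets factor gene Etv4 rose by 2.09 (adjusted p = 0.00167). Of 7 genes of AP-1 subunits, picked out after their values were seen, Fos, Fosb, Fosl1 and Jun rose. The other 3 were not called, at -0.68 for Fosl2 (adjusted p = 0.0521), -0.50 for Junb and -0.08 for Jund. Under median-ratio scaling 11 of the 23 genes of the list were lower. The Fosb call was lost without control 1 or 3 and with pairs averaged. Fosl1 went from 17.2 ± 1.81 to 48.1 ± 0.866 TPM. The 3 members with an exact AP-1 match in the printed windows stood at -2.25 (Mmp12), -0.31 (Mmp13) and -0.04 (Mmp3). The 3 without an exact match stood at -2.31 (Mmp8), -0.34 (Mmp14) and 1.55 (Timp1), though the Timp1 window holds the variant TGAGTAA. Mmp2, Mmp9, Mmp19 and Adamdec1 had no window, and any tie of the motif to these differences was not tested.

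The tumour comparison puts the same question to whole tissue. No gene passed there: 0 of the 10, and 0% of the 13282 genes tested by limma, where the smallest adjusted p was 0.754. At an unadjusted p under 0.05, 3 of the 10 stood out (Adamdec1, Mmp9 and Mmp14, all with more in mannose tumours), beside 6.23% of all genes, 5.53% with a positive difference. The difference was positive for 9 of the 10, as it was for 74.4% of all genes tested, with a median of 0.44 beside 0.12. No member had groups that did not overlap, against 1.63% of all genes.

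Adamdec1 had the largest difference of the 10. Control tumours read 5.88, 5.00, 12.80, 6.56 and 5.05 TPM and mannose tumours 24.27, 21.04, 16.01, 11.37 and 12.12 TPM. Control 3 reached into the mannose range, and the other 4 controls lay below every mannose tumour. The log2 difference was 1.18 (SE 0.268), and the ratio of means 2.40, at an unadjusted p of 9.71e-04 and an adjusted p of 0.754. Mmp9 read 463.21, 478.84, 719.93, 575.01 and 461.42 TPM in controls and 1184.61, 885.53, 756.76, 609.58 and 642.57 TPM with mannose. Here too control 3 was the highest control, and 3 of 5 mannose tumours exceeded it (difference 0.57, SE 0.190, adjusted p = 0.754). Mmp14 read 88.06, 126.05, 171.18, 100.55 and 127.09 TPM in controls and 162.56, 156.41, 196.80, 135.86 and 161.24 TPM with mannose. Without control 3 the mannose tumours would all lie above the controls (difference over all libraries 0.43, SE 0.168, adjusted p = 0.754).

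The collagenase and elastase genes varied widely inside the mannose group. Mmp13 read 193.36, 287.48, 242.00, 268.84 and 443.80 TPM in controls and 654.97, 375.95, 518.10, 302.36 and 248.80 TPM with mannose. Mmp12 read 112.74, 193.40, 121.20, 177.36 and 227.72 TPM in controls and 410.95, 138.02, 314.24, 121.05 and 161.79 TPM with mannose. In both, mannose tumours 1 and 3 lay above every control and the other 3 inside the control range (differences 0.51, SE 0.275, and 0.34, SE 0.338).

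Mmp19 read 5.43, 14.47, 15.19, 13.70 and 17.91 TPM in controls and 21.15, 13.94, 25.04, 16.55 and 13.23 TPM with mannose (0.45, SE 0.283). Mmp2 spread most, from 3.91 to 40.58 TPM in controls (median 12.57) and from 6.96 to 48.54 TPM with mannose (median 23.36). Mmp3 ran from 20.55 to 83.10 TPM in controls and from 48.60 to 100.08 TPM with mannose. Without control 1 and mannose 3 together, the libraries least like the rest, the differences of Mmp2 and Mmp3 went from 0.60 and 0.43 to -0.09 and -0.02. Mmp8 stayed between 0.38 and 1.71 TPM in all 10 tumours (-0.04, SE 0.238).

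Timp1 read 334.38, 273.50, 365.01, 275.85 and 377.08 TPM in control tumours and 469.65, 336.67, 337.29, 258.76 and 342.12 TPM with mannose. Mannose tumour 1 was the highest and mannose tumour 4 the lowest of all 10, and the difference was 0.09 (interval -0.25 to 0.43), with a turn to -0.03 under median-ratio scaling. A pair of libraries held the extremes of most members. Mannose tumour 1 was the highest of the 10 for 6 genes (Adamdec1, Mmp12, Mmp13, Mmp8, Mmp9 and Timp1) and mannose tumour 3 for the other 4. Control tumour 1 was the lowest for 6.

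None of the related lists held a called gene in the tumours. The genes with the smallest limma p within their lists included the cytokine Il6 (difference 0.67, unadjusted p = 6.21e-04) and the AP-1 gene Jund (-0.34, unadjusted p = 0.00647). On the list of Il6, Il1a (0.67, unadjusted p = 0.0117) and Tnf (0.71, unadjusted p = 0.0118) came next. Of other lists, the metalloproteinase inducer Bsg (-0.26, unadjusted p = 0.0155) and Adam9 (0.54, unadjusted p = 0.0324) had the smallest. Each of these genes had an adjusted p of 0.754. The median differences of the lists ran from 0.11 for inducers and transcription factors to 0.44 for the inhibitors Timp2 and Timp3, beside 0.12 for all genes. The macrophage markers, 11 of 12 with a positive difference (median 0.54), summed to 961.6 to 1858 TPM in control and 1166 to 2883 TPM in mannose tumours. Fibroblast markers were positive in 9 of 9 (median 0.65, sums of 154.7 to 1328 and 590.3 to 2162 TPM). Neutrophil markers, of which 5 of 9 were expressed enough to test, were at a median of -0.14. All 9 summed to 118.1 to 247.4 and 46.4 to 145.6 TPM. Their part in the tumour values was not tested.

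**Figure D3:**
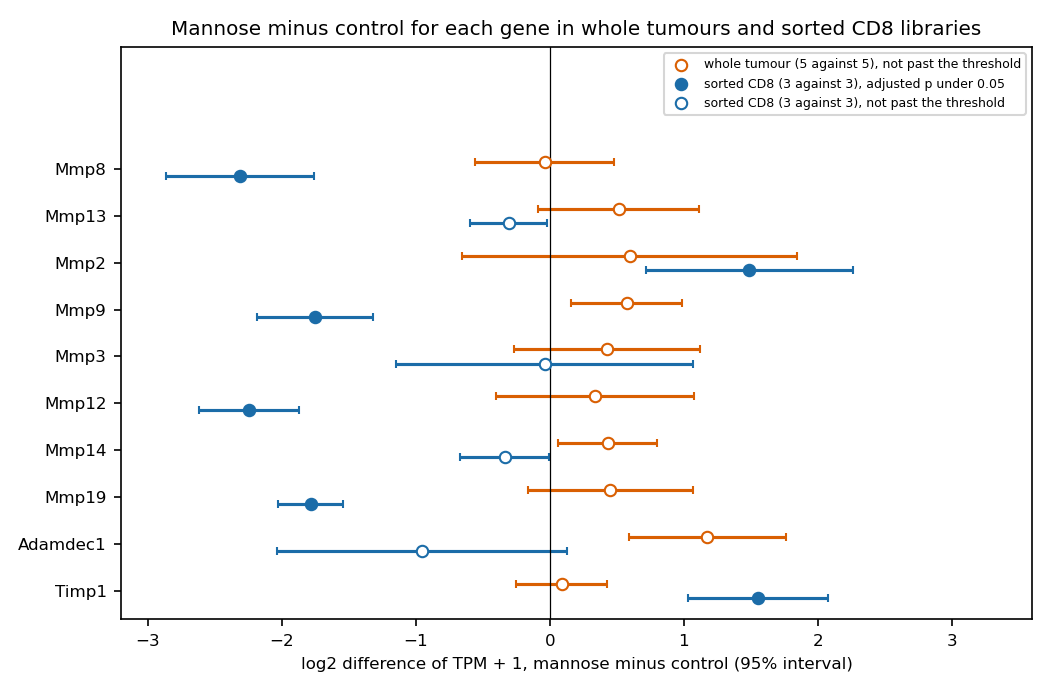
Log2 difference of TPM + 1 (mannose minus control, horizontal axis) with its 95% interval for each gene in whole tumours (orange) and sorted CD8 libraries (blue); filled points have an adjusted p under 0.05. All 10 tumour points are open and 6 CD8 points are filled, and the CD8 points of Mmp13, Mmp14 and Mmp3 change side when libraries are scaled to T cell markers.

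Whether the response differed between the sorted cells and the whole tumours was tested as an interaction over all 16 libraries. It passed for 7 of the 10 genes, 6 with a more negative difference in CD8 libraries and 1 with a more positive one. Of the 15498 genes tested, 7.64% were called in the first direction and 11% in the second (18.7% in all). The difference between the log2 differences was -2.59 for Mmp12 (SE 0.491, adjusted p = 0.00184), -2.33 for Mmp9 (SE 0.302, adjusted p = 1.65e-04), -2.28 for Mmp8 (SE 0.371, adjusted p = 6.48e-04) and -2.24 for Mmp19 (SE 0.398, adjusted p = 0.00118). In tumours Mmp8 lay between 0.38 and 1.71 TPM, where log2 of TPM + 1 compresses differences. Its interaction therefore mostly repeats its CD8 difference of -2.31. Adamdec1, at 1.18 in tumours and -0.95 in CD8 libraries with neither called, differed by -2.13 (SE 0.528, adjusted p = 0.0106). For Timp1 it was 1.47 (SE 0.279, adjusted p = 0.00188).

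Mmp14 passed narrowly (-0.77, SE 0.256, adjusted p = 0.0479). Its call was lost when any 1 of 12 of the 16 libraries was left out (adjusted p between 0.0567 and 0.110); it held only without tumour control 1, tumour control 3, tumour mannose 4 or CD8 mannose 1. Averaging the alike pairs also ended it (adjusted p = 0.116). Scaling to T cell markers brought Mmp14 to -0.05 and ended the Adamdec1 call (-1.52, adjusted p = 0.0570). Mmp13 (-0.82, interval -1.66 to 0.02), Mmp2 (0.89, interval -0.91 to 2.69) and Mmp3 (-0.47, interval -1.73 to 0.80) did not pass. Among the related genes the interaction was called for the cytokines Il1a (-3.02), Il1b (-2.69) and Tnf (-2.61), for Serpinb2 (-2.78), and for Timp2 (1.89).

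The level of each gene was then compared with cell marker levels over the 10 tumours, in 30 relations (10 genes by macrophage, neutrophil and fibroblast markers), with permutation tests of 100000 resamples and Benjamini-Hochberg adjustment. Of these, 6 passed, and 2 of them passed by rank as well. Mmp2 followed the fibroblast markers (Pearson r = 0.952, permutation p = 1e-05, the smallest that these permutations can give, adjusted p = 0.0003, Spearman rho = 0.927, permutation p = 3.1e-04, adjusted p = 0.00465). Without the 2 tumours farthest from the median marker level r was 0.941, and with both groups centred on their means 0.959. Mmp14 followed the macrophage markers (r = 0.913, permutation p = 1.6e-04, adjusted p = 0.0024, rho = 0.939, permutation p = 2e-04, adjusted p = 0.00465). Without the 2 farthest tumours r was 0.863 and the adjusted permutation p 0.0794, and with centred groups r was 0.888.

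None of the other 4 relations passed without the 2 tumours farthest from the median marker level, and they rest on those tumours. Mmp19 with macrophage markers had r = 0.847 (permutation p = 0.00688, adjusted p = 0.0344, rho = 0.661, permutation p = 0.0436) and r = 0.388 without the 2 farthest tumours. Mmp14 with fibroblast markers had r = 0.824 (permutation p = 0.00299, adjusted p = 0.0299, rho = 0.685, permutation p = 0.0341) and r = 0.477 without them. Mmp9 and Adamdec1 were lower where neutrophil markers were higher, with r = -0.789 (permutation p = 0.00653, adjusted p = 0.0344, rho = -0.746, permutation p = 0.0175) and r = -0.669 (permutation p = 0.0068, adjusted p = 0.0344, rho = -0.649, permutation p = 0.0491). They came to -0.376 and -0.434 without the 2 tumours farthest in neutrophil markers, to -0.759 and -0.617 with centred groups, and to -0.834 and -0.718 without control 1 and mannose 3. By rank none of these 4 passed (adjusted permutation p between 0.105 and 0.164). Only 5 of the 9 neutrophil markers passed the expression filter in tumours, without Ly6g, Camp, Ltf and Ngp, yet all 9 entered the mean. With macrophage markers Mmp9 and Adamdec1 had r = 0.622 and 0.641 (adjusted permutation p = 0.123 and 0.104). These came to 0.760 and 0.736 without the 2 tumours farthest in macrophage markers, and to 0.436 and 0.454 with centred groups. Mmp3, Mmp8, Mmp12, Mmp13 and Timp1 passed with none of the 3 lists. For Mmp12 with macrophage markers r was 0.601 (adjusted permutation p = 0.138), and 0.258 without the 2 farthest tumours.

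**Figure D4:**
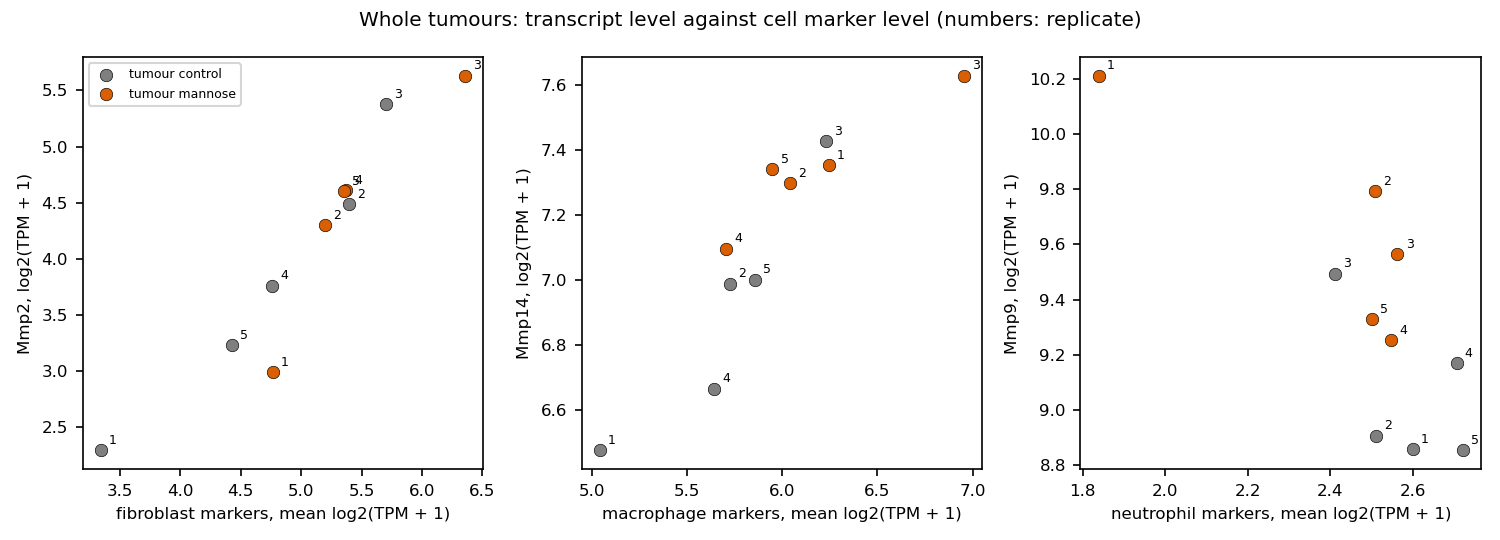
Log2(TPM + 1) of Mmp2, Mmp14 and Mmp9 (vertical axes) against the mean log2(TPM + 1) of fibroblast, macrophage and neutrophil markers (horizontal axes) in 10 whole tumours; each point is a library, coloured by group and numbered by replicate. Mmp2 (r = 0.952) and Mmp14 (r = 0.913) rise along the whole marker range, while in the Mmp9 panel (r = -0.789) mannose tumour 1 stands alone at the left.

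The genes whose levels were most like those of each member were looked up among 9421 genes with a mean of at least 5 TPM over the 10 tumours, as a description with no test, since tumour-wide differences are shared by many genes. Mmp2 was most like the collagen genes Col8a1 (r = 0.993) and Col3a1 (r = 0.986) and the microfibril gene Mfap4 (r = 0.979). Mmp13 was most like Cemip, a hyaluronan-degrading protein (r = 0.955), and Mmp10, another gene of the chromosome 9 cluster (r = 0.944). Mmp10, a stromelysin like Mmp3, averaged 46.1 ± 16.1 TPM over the 5 control tumours and 63.2 ± 22.4 TPM over the 5 with mannose. Mmp9 and Adamdec1 were each other's first match (r = 0.957), and Fcna, a macrophage lectin, was on both lists (r = 0.911 and 0.941).

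Mmp14 was most like the costimulatory receptor gene Tnfrsf4 (r = 0.983), Mmp19 like the receptor gene Gpr35 (r = 0.977) and the sheddase gene Adam17 (r = 0.975), Mmp12 like Accs (r = 0.970), Mmp3 like Il15ra (r = 0.946), Timp1 like Stn1 (r = 0.957) and Mmp8 like the lipid exporter gene Abcg1 (r = 0.901).

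The sum of the 8 Mmp transcripts was set against Timp1 within each library, as a description with no test. In control tumours the sum was 1196 ± 195 TPM (n = 5) and 3.73 ± 0.679 times Timp1. In mannose tumours it was 1733 ± 508 TPM and 4.94 ± 0.728 times Timp1, and the ranges of the ratio overlapped (2.66 to 4.36 and 3.84 to 5.81). The CD8 control libraries had a sum of 2252 ± 178 TPM, and ratios of 37.6, 42.7 and 60.7. With mannose the sum was 848.4 ± 134 TPM and the ratios 6.35, 5.48 and 5.55. The fall in Mmp9, Mmp12, Mmp8 and Mmp19 and the rise in Timp1 both enter this ratio. Mmp9, Mmp12 and Mmp13 together made up 77.3% to 90.3% of the Mmp sum in every library.

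**Figure D5:**
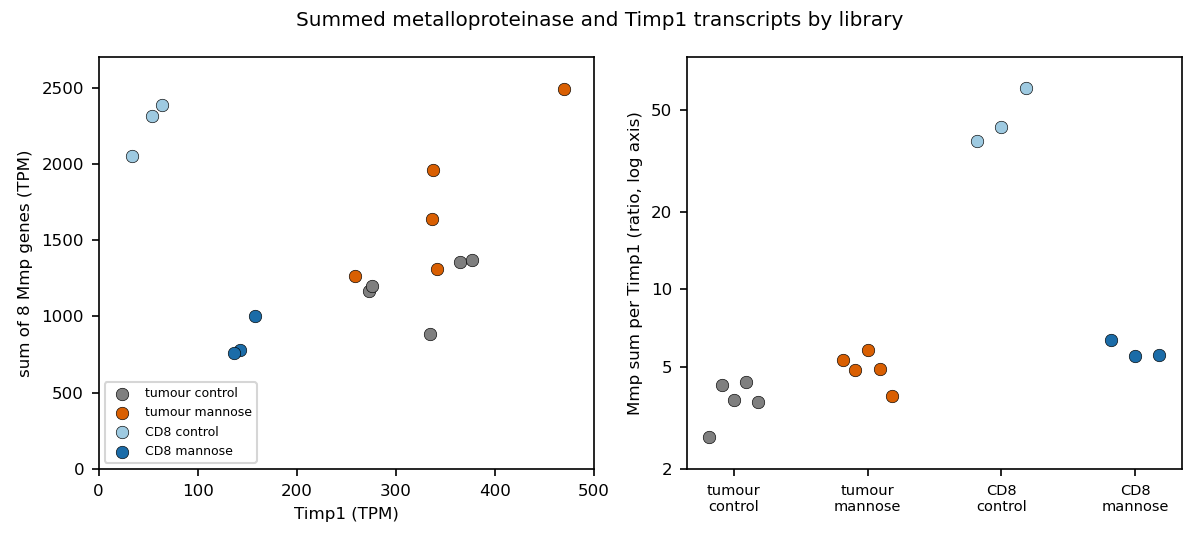
Left, the summed TPM of the 8 Mmp genes (vertical) against Timp1 TPM (horizontal) per library; right, their ratio by group on a log axis, each point a library. The CD8 control libraries lie apart at ratios of 37.6 to 60.7, and the other 13 libraries lie between 2.66 and 6.35.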

How the data were processed

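The authors deposited a table for each of the 16 libraries, and its values were read as TPM, since each library sums to between 993815 and 997809.5 over symbols. Per the labels' protocols, total RNA was extracted with TRIzol and libraries followed standard Illumina methods. Without versions or roles, the build GRCm39 and the tools fastp, RSEM and HISAT are listed in the submitters' processing notes. The annotation is not given in the sources used here.

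Duplicate symbols were summed and genes with at least 1 TPM in 5 tumour or 3 CD8 libraries (3 of 16 for the interaction) were kept. Groups were compared with limma 3.58.1 (R 4.3.3, variance trend) on log2(TPM + 1), with Benjamini-Hochberg adjustment and a threshold of 0.05. Fold changes on that scale understate changes of low genes. Correlations used scipy 1.17.1. The fit and the permutation test were first tested on simulated data. Replicate numbers did not pair the libraries. Alternatives covered the pseudocount, filter, normalization, replicate block, array weights, joint fit, averaged or left-out libraries and scaling to T cell markers. Named genes were all members, up to 4 called genes of each related list by size of difference (where none was called, up to 2 by p), and up to 3 genes most like each member; a gene that this rule selects is not reported here. The members and lists were chosen with earlier results of these data known.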

Additional observations from a re-analysis of the deposited data

Results flagged for a closer look

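A library far from the others of its group was found in 2 of 20 gene-by-group sets of 5 tumours, where chance gives about 1 in 20. The gap of the highest library to the next, as a share of the group's range, was 0.754 for Mmp3 in mannose tumours (mannose 3, at 100.08 TPM) and 0.80 for Adamdec1 in control tumours (control 3, at 12.80 TPM). Sets of 3 CD8 libraries are too small for this check.

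The mannose difference was not the same in CD8 libraries and whole tumours for 7 genes by the limma interaction (CD8 minus tumour, log2): Mmp12 at -2.59, Mmp9 at -2.33, Mmp8 at -2.28, Mmp19 at -2.24, Adamdec1 at -2.13, Mmp14 at -0.77 and Timp1 at 1.47. All of these rest on the labels of the CD8 control libraries, whose tables are headed otherwise. That of Mmp8 mostly repeats its CD8 difference, since its low tumour levels leave little room for a difference on this scale.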

How the results depend on the processing

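In the CD8 comparison the calls of Mmp8, Mmp9, Mmp12, Mmp19 and Timp1 held under all 15 alternatives, and the interaction calls of Mmp8, Mmp9, Mmp12, Mmp19 and Timp1 held under all 25. The tumour comparison stayed at 0 called members throughout. TPM gives no depth, so low levels such as Mmp8 in tumours have unknown precision, and 3 libraries a group limit every CD8 value. Median-ratio scaling and quantile normalization brought the median difference of all genes in tumours from 0.12 to 0.02 and -0.005.

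Leaving out single libraries gave 1909 to 3610 genes higher and 894 to 2509 lower in CD8, with 1 to 2 members higher and 4 to 5 lower, 1139 to 2630 and 745 to 1604 genes in the interaction, with 1 and 5 to 6 members, and 0 to 1 genes higher in tumours. The count of higher CD8 genes was 2040 without mannose 1 and 1909 without mannose 2, and of lower genes 1028, 894 and, without control 2, 1048. The interaction gave 2630 higher genes without tumour control 1, 1139 higher and 745 lower without CD8 mannose 1, and 783 lower without CD8 mannose 2. Array weights gave 5114 and 3517 CD8 genes, with 7 members lower (Mmp13, Mmp14 and Adamdec1 added), and 3478 and 2845 in the interaction. Averaging the alike pairs gave 1091 and 561 in CD8 with 1 member higher, and 1047 and 562 in the interaction, from fewer libraries. The joint fit of 16 libraries left 1 member higher in CD8. Scaling to T cell markers gave 6095 and 333 in CD8 and 4704 and 370 in the interaction.

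Directions of uncalled members turned as follows, and the cause was not tested. In tumours Timp1 was -0.026 under median-ratio scaling and -0.025 without mannose 1 (range with single libraries left out -0.025 to 0.19). Tumour Mmp8 was 0.058, 0.00015, 0.053 and 0.099 without control 2, 4 or 5 or mannose 2 (range -0.16 to 0.099). Tumour Mmp2 and Mmp3 were -0.087 and -0.023 without control 1 and mannose 3. Tumour Timp2 was -0.033 under median-ratio scaling, -0.048 without control 1 (range -0.048 to 0.17) and -0.037 without control 1 and mannose 3. In CD8 Mmp3 was 0.12, 0.10, 0.28 and 0.16 without control 1 or 2 or mannose 1 or 2 (range -0.56 to 0.28), 0.37 with pairs averaged and 0.65 with T cell scaling, where Mmp13 was 0.42 and Mmp14 0.38, and Mmp3 in the interaction 0.22. Mmp13 was called in CD8 under median-ratio scaling (-0.39, adjusted p = 0.0423). The Mmp14 interaction was not called without a filter (adjusted p = 0.0909) or without tumour control 1 and mannose 3 (adjusted p = 0.0710).

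The number of correlations past the threshold went from 6 to 3 after centring on group means, 1 without control 1 and mannose 3, and 1 without the 2 farthest tumours.

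The replicate numbers did not pair the libraries: deviations of same-numbered tumours correlated at -0.05, -0.23, 0.28, 0.16 and -0.51 and those of CD8 libraries at 0.06, 0.09 and 0.16. With the replicate number as a block, 3152 genes were higher and 1686 lower in CD8 with 2 and 5 members, Adamdec1 being added (-0.95, adjusted p = 0.00850), 1467 and 1026 in the interaction with 1 and 6 members, and 0 in tumours.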
